A study of Mus musculus with 8 samples.

Results

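B1_M elements are the B1 repeats of the mouse genome whose subfamily names begin with B1_M. They were taken as every row of the deposited count table whose class was SINE, whose family was Alu and whose subfamily name began with B1_M, with no measured value used in the choice. This gave 334056 copies among 4835895 regions of the table, or 6.91% of its rows and 62.2% of the 537367 copies of the Alu family. By subfamily they were 41966 copies of B1_Mm, 99291 of B1_Mus1, 65140 of B1_Mus2, 39066 of B1_Mur1, 31448 of B1_Mur2, 26643 of B1_Mur3 and 30502 of B1_Mur4. The other 203311 Alu copies carry the names B1F, PB1 and alike and are called older B1 here.

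ATAC-seq counts the sites at which a transposase could insert into the DNA of isolated nuclei, so a higher count over a region means more accessible chromatin. It was applied to primary fibroblasts of the mouse lung, taken from 4 mice without cGAS (KO) and 4 with it (WT, wild type), and in each genotype 2 mice were labelled female and 2 male. All cultures of both genotypes were kept at 5% CO2 and 5% O2 in medium with serum. The knockout allele, the strain and the age of the mice are not given in the sources used here, and the Cgas locus was not analysed here. cGAS is a sensor that switches on interferon signalling when it meets DNA outside the nucleus, and the title of the series asks about chromatin organization and about LINE1 elements that lose their repression. Libraries are named by genotype, sex label and replicate number, as in KO F1. Where the 4 values of a genotype are listed, they come in the order F1, F2, M1, M2.

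B1 elements are short interspersed elements of rodents that arose from the gene of 7SL RNA, the RNA of the signal recognition particle, as the primate Alu elements did. They code for no protein, carry an internal promoter for RNA polymerase III and were copied into new sites by the proteins of LINE1 elements. In mouse cells most copies are silenced by DNA and histone methylation, and B1 copies are known to lie mainly in gene-rich DNA. The B1F and PB1 groups are held to be the ancient members of the family, the B1_Mur names cover copies shared across mouse-like rodents, and B1_Mus and B1_Mm hold the copies of most recent origin.

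The deposited table gives no sequence divergence, so the age in the name could be checked only by length. The median B1_M copy was 139 bp long, against 107 bp for older B1. Copies of 140 to 150 bp, close to a whole element, made up 55.3% of B1_Mm, 52.5% of B1_Mus1 and 55.3% of B1_Mus2. They made up 25.1% of B1_Mur1, 25.7% of B1_Mur2, 28.0% of B1_Mur3, 38.0% of B1_Mur4 and 5.80% of older B1. By this measure B1_Mm and the B1_Mus subfamilies were the most complete and older B1 the least, with B1_Mur between them. No genome of the build of these files (GRCm39) was used, so the sequences of the copies were not analysed here and no copy is assigned to a gene.

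Table totals ranged from 43.2 to 72.9 M counts per library, of which 0.853 to 1.05 M fell on B1_M copies. Open chromatin regions (OCRs), the peaks of the table, took 64.6% (KO M2) to 76.4% (WT M1) of each library's counts. Over all B1_M copies, the library labelled KO F2 stood between the libraries of both sex labels and nearer to the male ones. On chromosome X its B1_M copies outside OCRs had 54.3 counts per length where autosomal B1_M copies had 100, against 64.5 to 72.6 in the other 3 female-labelled libraries and 44.3 to 52.3 in the 4 male-labelled libraries. On chromosome Y it had 11.4, against 3.24 to 4.08 and 12.4 to 22.3. By subfamily, KO F2 lay within the male-labelled range on chromosome Y in B1_Mur1 and B1_Mur2 and below it in the others. Y copies of B1_Mur1 had 12.4 in KO F2, against 0 to 0.284 in the other female-labelled libraries and 10.7 to 22.8 in male-labelled ones. Those of B1_Mur2 had 9.93, against 0 and 5.95 to 26.2. Sex labels were used as given, and results that rest on this library are given with and without it.

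A typical B1_M copy was covered thinly. The median copy held 2.00 counts per library, 19.3% (WT F1) to 28.4% (WT M1) of copies held none in a given library, and 2689 copies (0.805%) held none in any. The 1% of copies with the most counts held 12.3% of all B1_M counts. Values below are therefore given mostly for copies summed by subfamily or position. They are in CPM (counts relative to a TMM-adjusted library size) or in CPM per Mb of annotated sequence. CPM per Mb uses the table total without TMM adjustment, so differences between libraries in OCR share enter it. CPM per kb of OCRs uses OCR totals without TMM adjustment. TMM is the edgeR factor that makes libraries comparable when a few regions take many counts.

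Counts per length of B1_M copies fell with distance from OCRs. An OCR is a peak of ATAC-seq signal in this study's own table, so high counts at and beside OCRs follow from how they were defined, and the values are given as a description. B1_M copies that overlapped an OCR had 1657 ± 55.5 CPM per Mb (SD over all 8 libraries), those 1 to 199 bp away 952.1 ± 69.6, those 1000 to 1999 bp away 365.5 ± 59.2, and those at least 200000 bp away 93.7 ± 32.4. The difference was seen in both genotypes, from 1678 ± 74.6 to 101.5 ± 34.4 in KO and from 1637 ± 22.3 to 85.9 ± 33.1 in WT (mean ± SD, n = 4 each). A read end inside an OCR that also lies in a repeat was shared equally between them by the authors' counting, so values of overlapping copies are lower than whole read counts would give. The median B1_M copy lay 3232 bp from the nearest OCR, and the median distance was 4107 bp for B1_Mm, 3633 bp for B1_Mus1 and 3167 bp for B1_Mus2, against 2790 to 2826 bp for the 4 B1_Mur subfamilies and 2733 bp for older B1. More than 50 kb from any OCR lay 15.2% of B1_Mm, 14.1% of B1_Mus1 and 9.41% of B1_Mus2 copies, against 6.23% to 7.76% of the B1_Mur copies and 5.74% of older B1. Chromosome Y, with only 87 OCRs, is included in these distances. Outside OCRs it carried 1121 copies of B1_Mm, 4034 of B1_Mus1, 439 of B1_Mus2, 195 (B1_Mur2) to 746 (B1_Mur4) of the B1_Mur subfamilies and 747 of older B1. Its part in the distances was not tested.

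**Figure D1:**
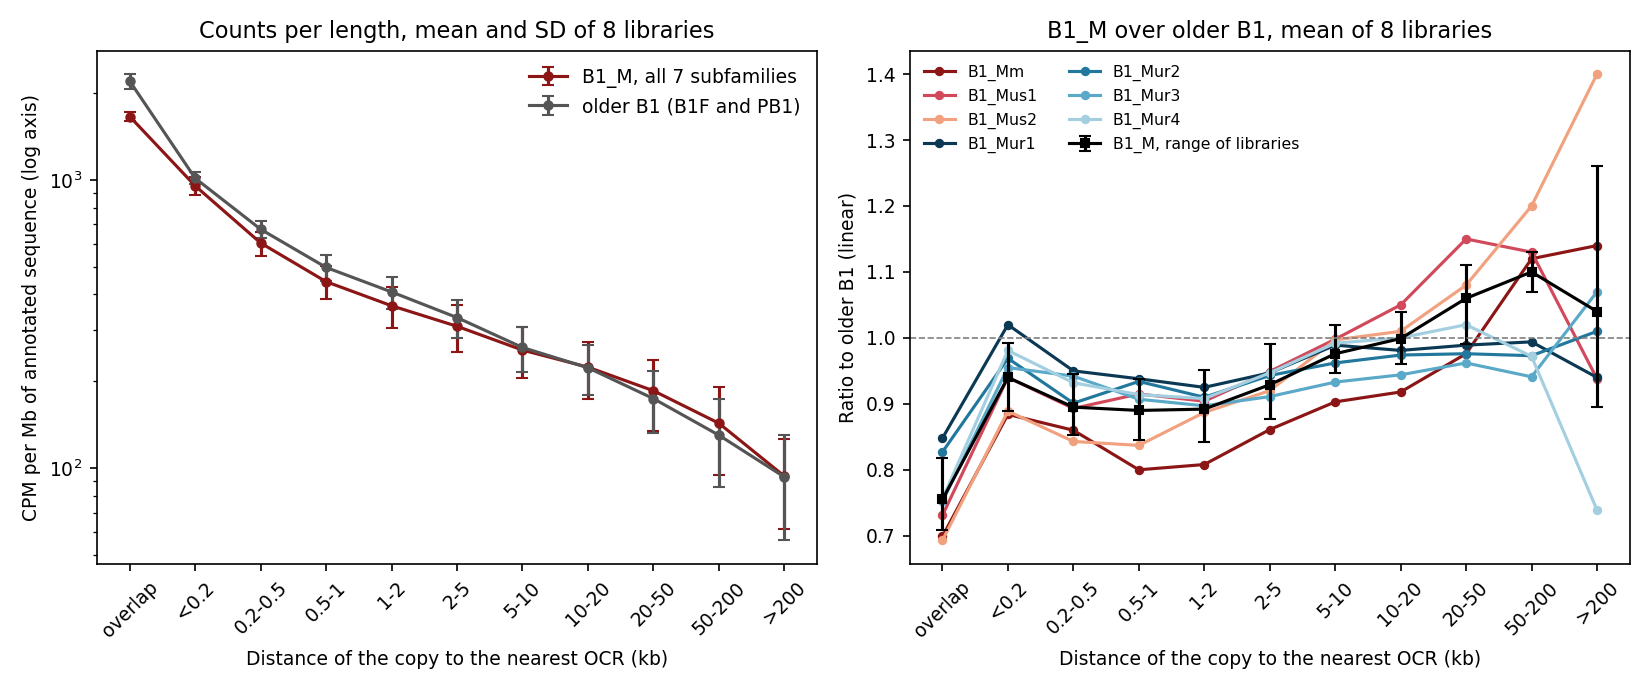
Left: CPM per Mb of annotated sequence (log axis) against the distance of a copy to the nearest OCR, for B1_M and older B1 (points, mean; bars, SD of 8 libraries). Right: the ratio to older B1 in the same distance class for each subfamily (mean of 8 libraries) and for B1_M as a whole (black, bars from the lowest to the highest library). B1_M started at 0.755 of older B1 where copies overlap OCRs and reached 1.10 at 50 to 200 kb.

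Outside OCRs, B1_M copies had fewer counts per base than older B1. The level was 333.3 ± 52.7 CPM per Mb for B1_M and 374.5 ± 45.8 for older B1 (SD, n = 8). The log2 ratio of B1_M to older B1 was -0.17, -0.14, -0.25 and -0.08 in KO, and -0.14, -0.15, -0.21 and -0.24 in WT. It was below 0 in 8 of 8 libraries, with a mean of -0.17 ± 0.06 (SD), or 0.886 on the linear scale (exact two-sided sign-flip test over libraries, p = 0.00781, the smallest 8 libraries can give). The groups overlapped, and the ratio did not differ detectably between genotypes (-0.16 ± 0.07 in KO, -0.19 ± 0.05 in WT, each the mean ± SD of 4, exact permutation p = 0.600). How reads with several equal matches were placed is not given in the sources used here. Such reads may be more frequent in near-identical recent copies than in diverged older ones, so fewer counts need not mean less accessible DNA, and their part in this ratio and in the order of the subfamilies was not tested.

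The 3 subfamilies with the most near-whole copies were the lowest. Relative to older B1 outside OCRs, B1_Mm stood at 0.777, B1_Mus1 at 0.869 and B1_Mus2 at 0.885, and the 4 B1_Mur subfamilies at 0.922 to 0.954. Each of the 7 was below older B1 in 8 of 8 libraries. For B1_M as a whole, the ratio to older B1 was below 1 near OCRs and above it far from them. At 500 to 999 bp, B1_M stood at 0.890 of older B1 (0.845 to 0.938 over libraries), at 10 to 20 kb at 0.999 (0.961 to 1.04), and at 50 to 200 kb at 1.10 (1.07 to 1.13, above 1 in 8 of 8 libraries). In that last class B1_Mm (1.12), B1_Mus1 (1.13) and B1_Mus2 (1.2) were each above 1 in 8 of 8 libraries, and the B1_Mur subfamilies stood at 0.941 to 0.994. Beyond 200 kb the libraries spread from 0.895 to 1.26. No test was made of these distance classes, and copies on chromosome Y were not set apart in them.

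The ratio moved with the share of counts that a library had in OCRs. Across the 8 libraries the log2 ratio of B1_M to older B1 outside OCRs fell as the OCR share of the library rose (Pearson's r = -0.908, exact permutation p = 0.00255, adjusted over 2 relations 0.00510, and Spearman's rho = -0.881, p = 0.00724, adjusted 0.0145). Without KO M2 and WT M1, the libraries farthest from the median share, r was -0.885 (exact permutation p = 0.00972). The share of B1_M among all retrotransposon counts had the opposite sign (r = 0.739, exact permutation p = 0.0351, adjusted 0.0351, and rho = 0.714, p = 0.0576), and without the same 2 libraries its p was 0.0875 (r = 0.746, exact permutation). Both measures come from the same libraries as the OCR share, and what sets that share was not tested.

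Few B1_M copies lay in OCRs, and their sequence was denser towards the edges of OCRs than at the centre. At least 1 base of an OCR was covered by 10404 B1_M copies (3.11%), from 2.30% of B1_Mm and 2.70% each of B1_Mus1 and B1_Mus2 to 3.70% of B1_Mur3, 3.76% of B1_Mur4, 3.82% of B1_Mur2 and 4.26% of B1_Mur1. The share was 5.19% for older B1 and 8.04% for MIR, an ancient mammalian SINE. These copies held 13.7% of all B1_M counts over the 8 libraries together. When each OCR was divided into 5 zones from its centre to its edges, B1_M sequence made up 0.334% of the bases of the central zone and 1.5% of the outermost, a ratio of 0.223. The outermost zone held 39.4% of the B1_M bases in OCRs and the 3 inner zones 35.2%. This ratio was lowest for B1_Mus2 (0.152), B1_Mus1 (0.183) and B1_Mm (0.185) and higher for the B1_Mur subfamilies (0.247 to 0.303), older B1 (0.463) and MIR (0.739). Peaks were one set shared by all libraries, so these shares have no replicate error. The part of reads with several equal matches in the overlaps with OCRs, the zones and the distances to OCRs was not tested.

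**Figure D2:**
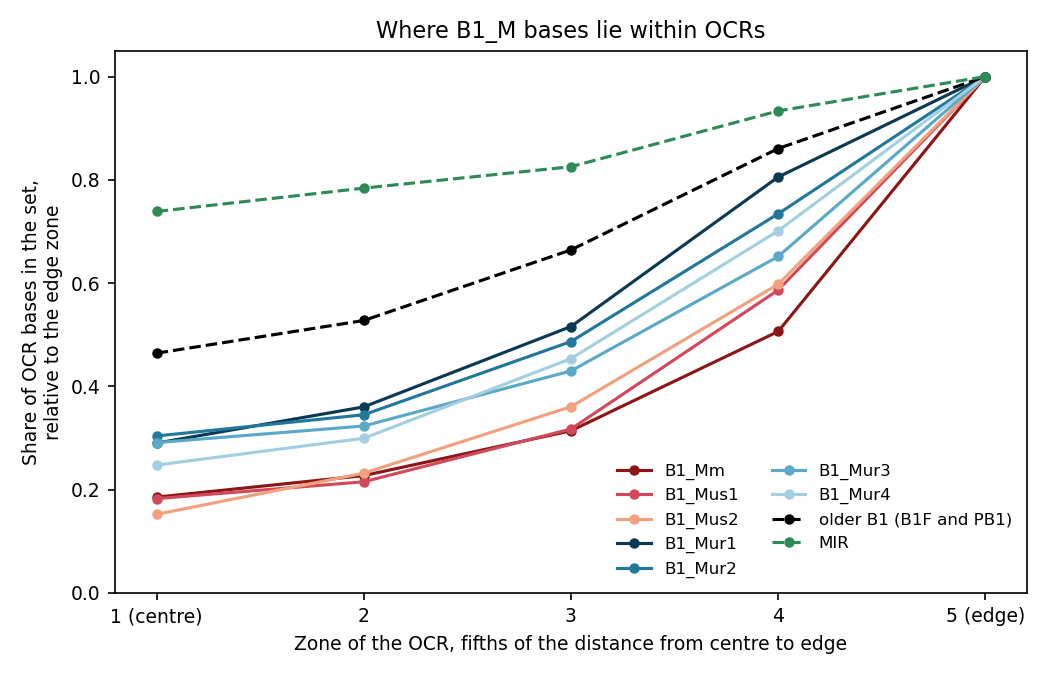
Share of OCR bases that belong to each set of repeats, by zone from the centre (1) to the edge (5) of the OCR, relative to the edge zone. The lines of B1_Mm, B1_Mus1 and B1_Mus2 lie lowest at the centre, those of the B1_Mur subfamilies next, and those of older B1 and MIR highest.

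The OCRs that overlapped a B1_M copy numbered 9797 of 185268 (5.29%) and held 6.19% of OCR counts. One B1_M copy lay in 9196 of them, 564 held 2, 33 held 3 and 4 held 4 or more, with 5 as the most. They were wider than OCRs without one (median 594 against 515 bp), and the share of OCRs that held a B1_M copy was larger among wider OCRs, from 3.83% of those of 201 to 341 bp to 7.26% of those of 832 to 5013 bp. Width for width, OCRs with a B1_M copy had fewer counts per length in the narrow classes (median 2.36 against 2.81 CPM per kb at 201 to 341 bp) and slightly more in the widest (9.68 against 9.38 at 832 to 5013 bp). The equal sharing of read ends takes counts from an OCR wherever a repeat lies in it, and a copy fills more of a narrow OCR. OCRs without a B1_M copy can hold other repeats, which were not compared here. The part of the counting in these differences was not tested.

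B1_M copies and OCRs were dense in the same places. Over 2412 windows of 1 Mb on chromosomes 1 to 19, the number of B1_M copies and the number of OCRs had r = 0.648 and rho = 0.716, given as a description since neighbouring windows share sequence and base composition. The windows were split by their number of B1_M copies into 5 classes of 482 or 483. In the class with 197 to 651 B1_M copies, the B1_M copies outside OCRs had 403.7 ± 56.5 CPM per Mb, and in the class with 1 to 49 they had 190.1 ± 48.6 (SD, n = 8). The class richest in B1_M also held 61412 OCRs, against 14665 in the poorest.

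Chromosome X was rich in B1_M copies for its few OCRs, with 17177 copies and 4277 OCRs, and 1.10% of its copies overlapped an OCR, against 2.47% (chromosome 13) to 3.85% (chromosome 11) on the autosomes. Outside OCRs its copies had 68.7 ± 4.07 counts per length in the 3 female-labelled libraries other than KO F2 and 47.7 ± 3.49 in the 4 male-labelled libraries (SD), where the same library's autosomal copies had 100. The subfamilies kept this split, from 57.9 ± 3.18 against 38.4 ± 3.55 for B1_Mur1 to 75.9 ± 5.39 against 52.5 ± 3.46 for B1_Mus1.

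The 6989 B1_M copies of chromosome Y behaved differently by subfamily. In the same 3 female-labelled libraries, Y copies of B1_Mus1 had 0.606 ± 0.0781 and those of B1_Mur1 0.0948 ± 0.164, against 15.2 ± 4.62 and 16.2 ± 5.01 in male-labelled libraries, and those of B1_Mur2 and B1_Mur4 had 0. Y copies of B1_Mus2 had 33.0 ± 4.44 in those female-labelled libraries and 37.9 ± 3.38 in male-labelled ones, values whose ranges overlapped (28.0 to 36.6 and 33.5 to 41.7). Those of B1_Mur3 had 17.2 ± 2.65 against 31.0 ± 4.40, and those of B1_Mm 5.37 ± 0.999 against 22.1 ± 4.43. In these 3 libraries B1_Mus2, B1_Mur3 and B1_Mm were thus the subfamilies whose mean on chromosome Y was above 1. The part of reads with several equal matches in these values was not tested either.

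**Figure D3:**
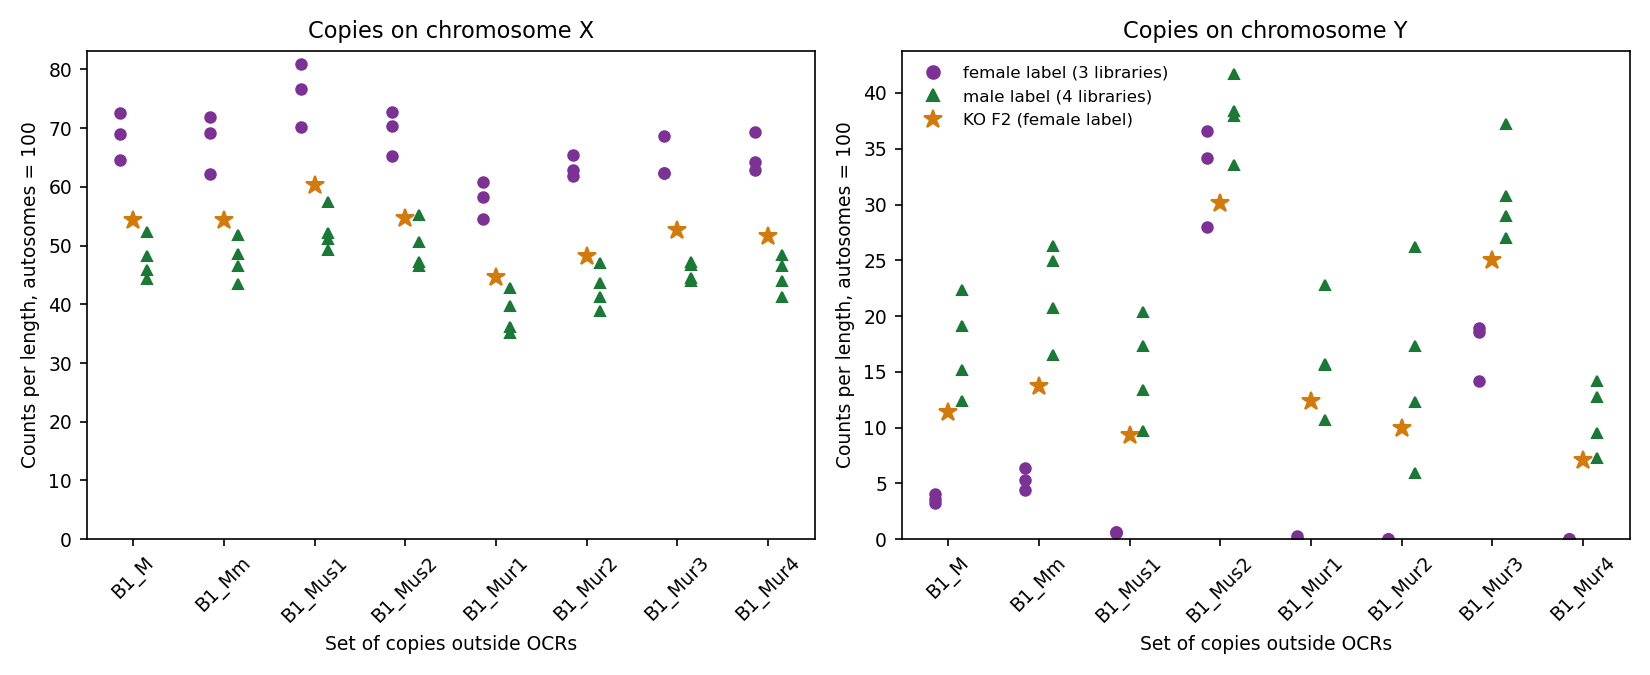
Counts per length of B1_M copies outside OCRs on chromosomes X (left) and Y (right), scaled so that copies on chromosomes 1 to 19 of the same set and library have 100, by subfamily and library (circles, 3 female-labelled libraries; triangles, 4 male-labelled libraries; star, KO F2). KO F2 lies below the other female-labelled libraries on X in each subfamily shown.

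The B1_M copies outside OCRs with the highest CPM were all on one unplaced scaffold. MU069435.1 carries 57 B1_M copies before base 31216, which together held 0.862% of all B1_M counts. The 49 of them outside OCRs stood at 65.8 times the density of autosomal B1_M copies outside OCRs. The other retrotransposon copies of that scaffold were also high, at 17523 CPM per Mb outside OCRs against 202.8 for those outside OCRs on chromosomes 1 to 19. Its leading copies were a B1_Mm copy at bases 29329 to 29474 (6.27 ± 0.982 CPM in the 4 KO libraries and 7.82 ± 2.69 in the 4 WT libraries, SD), a B1_Mus1 copy at 29511 to 29657 (6.24 ± 0.265 and 7.66 ± 1.54), a B1_Mur4 copy at 28908 to 29083 (5.86 ± 1.34 and 7.44 ± 2.73) and a B1_Mus1 copy at 2373 to 2481 (4.97 ± 1.13 and 5.98 ± 0.649). The KO and WT values of all 4 copies overlapped. On JH584304.1 the 33 B1_M copies outside OCRs stood at 21.2 times the same autosomal density. The 37 B1_M copies of JH584301.1 had 0 counts in KO F1, WT F1 and WT F2 and 21.0 to 106 CPM per Mb in the other 5 libraries.

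In none of the 7 B1_M subfamilies was a difference between KO and WT detected beyond the spread between mice. The comparison asks whether loss of cGAS changed the accessibility of B1_M repeats, and in such bulk libraries a change in the mix of cells and a change within each cell cannot be told apart. Summed over copies, B1_Mm had 1780, 1847, 1617 and 2121 CPM in KO, and 1860, 1780, 1607 and 1614 in WT. B1_Mus1 had 4747, 4948, 4508 and 5524 CPM in KO and 4925, 4804, 4462 and 4447 in WT. B1_Mus2 had 3161, 3291, 2976 and 3679 CPM in KO and 3245, 3157, 2918 and 2900 in WT. KO M2 was the highest of the 8 libraries in each, and the other KO libraries lay within or close to the range of WT. B1_Mur1 ran from 2022 to 2182 CPM in KO and from 1964 to 2074 in WT, B1_Mur2 from 1581 to 1705 and from 1520 to 1608, B1_Mur3 from 1294 to 1392 and from 1231 to 1328, and B1_Mur4 from 1577 to 1734 and from 1500 to 1617.

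The fold of KO over WT was 1.08 for B1_Mm (95% interval 0.917 to 1.26), 1.06 for B1_Mus1 (0.931 to 1.21) and 1.07 for B1_Mus2 (0.939 to 1.23) in edgeR's quasi-likelihood test. For the B1_Mur subfamilies it was 1.03 for B1_Mur1 (0.947 to 1.12), 1.04 for B1_Mur2 (0.951 to 1.13), 1.04 for B1_Mur3 (0.949 to 1.14) and 1.05 for B1_Mur4 (0.954 to 1.15). None of the 7 passed the threshold (adjusted p = 0.875 for each in edgeR), where 0% of the 831 subfamilies tested passed it. At an unadjusted p under 0.05, edgeR gave 0 of 7 and 1.81% of all 831. DESeq2 and limma voom also called 0 of the 7, where each called 0% of all 831. By unadjusted p they gave 0 of 7 as well, against 1.93% (DESeq2) and 3.25% (limma voom) of all 831. The median log2 fold of the 7 was 0.07 and that of all 831 subfamilies 0.06, and the 7 ranked 251 to 462 of 831 from the highest. The intervals leave room for changes of 0.917 to 1.26 times in B1_Mm and 0.954 to 1.15 times in B1_Mur4. These bounds hold for the main scaling only. With TMM over OCRs alone the log2 fold of B1_Mm was 0.183, against 0.105 in the main fit.

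**Figure D4:**
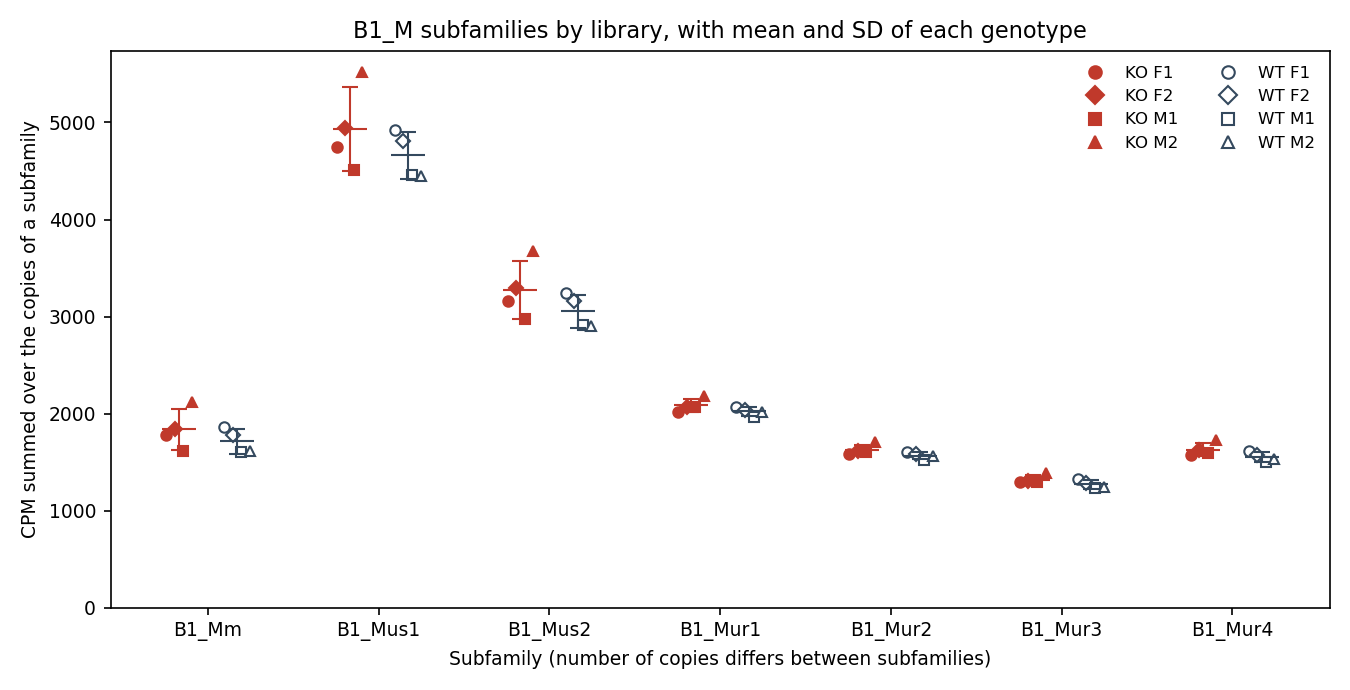
CPM summed over the copies of each B1_M subfamily, by library (filled, KO; open, WT; the marker shape gives the label), with the mean and SD of each genotype (n = 4). KO and WT overlap in each of the 7 subfamilies, and KO M2 is the highest library in each.

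KO M2 had both the lowest table total (43.2 M counts) and the lowest OCR share (64.6%). Without it the median log2 fold of the 7 subfamilies was 0.02 and that of all 831 was -0.01, and B1_Mm (-0.006) and B1_Mus1 (-0.001) stood below 0. When libraries were scaled over retrotransposon subfamilies alone, B1_Mur1 stood just below 0 (-0.001), and when they were scaled over OCRs alone the median of the 7 was 0.14 and that of all subfamilies 0.12.

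**Figure D5:**
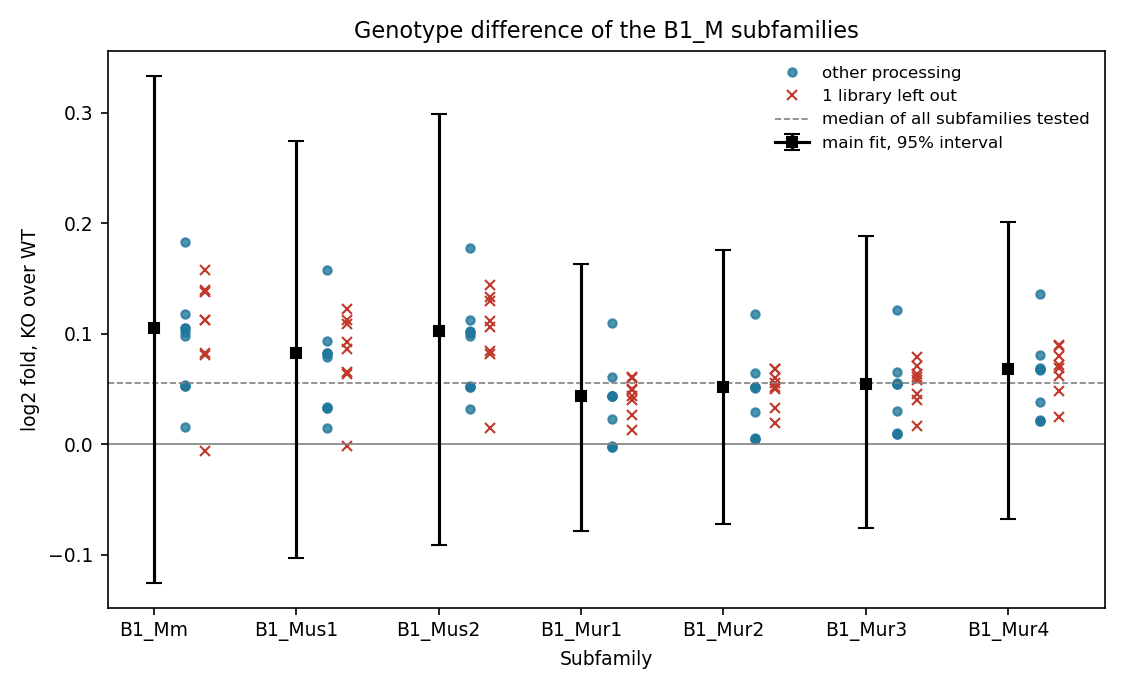
log2 fold of KO over WT for each B1_M subfamily: the main fit with its 95% interval (squares), other processing choices (circles) and fits with 1 library left out (crosses). Each interval includes 0, and the dashed line is the median of all 831 subfamilies.

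Shares of counts gave no detectable genotype difference either. B1_M copies took 6.27%, 6.53%, 6.94% and 6.41% of retrotransposon counts in KO and 6.21%, 6.52%, 6.76% and 6.41% in WT. The 4 KO libraries averaged 6.54% (SD 0.290) and the 4 WT libraries 6.48% (SD 0.230), with an exact permutation p of 0.714, also after adjustment over 3 shares. Of Alu counts they took 62.3% ± 1.56 in KO and 61.7% ± 1.21 in WT (by exact permutation p = 0.600, adjusted 0.714, n = 4 each). Copies that overlap OCRs held 13.4% ± 2.28 of B1_M counts in KO, a difference of -0.659 percentage points from the WT mean (exact permutation p = 0.714, adjusted 0.714, n = 4 each). The ranges of KO and WT overlapped in all 3 shares. With all counts of the table as denominator, B1_M took 1.70% ± 0.219 in KO and 1.58% ± 0.238 in WT (by exact permutation p = 0.457, n = 4 each).

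Of the 334056 B1_M copies, 23439 (7.02%) had enough counts to be tested singly, and 26.3% of these overlapped an OCR. The filter kept 19.2% of all retrotransposon copies. No B1_M copy passed the threshold in edgeR, where 0% of all 570571 tested copies did, and 622 (2.65%) had an unadjusted p under 0.05, against 3.54% of all copies. DESeq2 called 0 B1_M copies and 0.00736% of all copies. It gave some copies no adjusted p, and these could not be called. Among the copies of lowest p named below, only the B1_Mur3 copy on chromosome 19 had one (0.181 in DESeq2). KO and WT did not overlap in 691 B1_M copies (2.95%), 505 of them higher (2.15%) and 186 lower (0.794%) in KO, against 2.54% of all tested copies (1.75% higher and 0.783% lower in KO). The B1_M share was thus below that of all copies by the unadjusted p and above it by overlap, and neither difference was tested.

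The copies with the lowest p are given as values only. A B1_Mm copy on chromosome 13 (21946500 to 21946645, GRCm39), 1902 bp from the nearest OCR, had 0.267, 0.147, 0.654 and 0.752 CPM in KO and 0.114, 0.0931, 0.0333 and 0.0464 in WT. All KO values lay above all WT values, which rested on 2 to 7 counts per library (log2 fold 2.44 ± 0.53, SE, adjusted p = 0.848 in edgeR). A B1_Mur1 copy on chromosome 4 (83454813 to 83454951), wholly inside an OCR, had 0.319 to 0.995 CPM in KO and 0.0464 to 0.229 in WT (log2 fold 2.09). A B1_Mur3 copy on chromosome 17 (80420160 to 80420270), also inside an OCR, had 0.361 to 0.859 and 0.116 to 0.225 (log2 fold 1.76). A B1_Mus1 copy on the same chromosome (87609289 to 87609426), 215 bp from an OCR, had 0.173 to 0.559 and 0.0831 to 0.114 (log2 fold 1.89). Values of these 4 copies were higher in each KO library than in any WT library.

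In the other direction, a B1_Mur3 copy on chromosome 19 (20354600 to 20354746), 101 bp from an OCR, had 0.565, 0.295, 0.787 and 0.580 CPM in KO and 1.16, 1.32, 1.36 and 0.912 in WT, with no overlap (log2 fold -1.12 ± 0.33, SE, adjusted p = 1.000 in edgeR). A second B1_Mur3 copy, on chromosome 8 (84939548 to 84939691), had 0.188 to 0.297 CPM in KO and 0.310 to 1.08 in WT (log2 fold -1.46). A B1_Mur1 copy on chromosome 6 (134837478 to 134837622) had 0.126 to 0.213 and 0.294 to 0.605 (log2 fold -1.29). A B1_Mur4 copy on chromosome 15 (101217924 to 101218061), with 19 bases in an OCR, had 0.0471 to 0.131 and 0.0898 to 0.371 (log2 fold -1.76), and here KO and WT overlapped. All 8 copies were fitted on fewer than 100 counts per library, and whether reads were exchanged with near-identical copies was not tested.

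None of the 9797 OCRs that overlap a B1_M copy passed the threshold in edgeR, where 0% of all 185268 OCRs did. At an unadjusted p under 0.05 there were 890 of them (9.08%), 648 higher (6.61%) and 242 lower (2.47%) in KO, against 9.88% of all OCRs (6.42% higher and 3.45% lower). KO and WT did not overlap in 542 (5.53%), 372 higher (3.80%) and 170 lower (1.74%) in KO, against 5.98% of all OCRs (3.47% higher and 2.51% lower in KO). DESeq2, run as an alternative, called 123 of them (1.26%), 113 higher (1.15%) and 10 lower (0.102%) in KO, against 1.43% of all OCRs (1.21% higher and 0.218% lower). By each of these counts the share higher in KO was near that of all OCRs and the share lower in KO was below it, a difference that was not tested. Leaving out KO M2 cut the 890 to 465 (4.75%), with 5.20% of all OCRs. Without WT M1 the count was 587 (5.99%, with 6.46% of all OCRs) and without WT M2 589 (6.01%, with 6.58%), so OCRs as a whole fell in the same way. Without KO M1 the count was 772 (7.88%, with 8.09% of all OCRs) and without WT F2 725 (7.40%, with 7.99%). It rose to 997 without KO F1 (10.2%, with 11.3%) and to 1096 without WT F1 (11.2%, with 12.3%). Without KO F2 it was 1017 (10.4%, with 12.1% of all OCRs).

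In the 4 OCRs of lowest p that were higher in KO, the B1_M copy lay across an edge, with 39.0 to 78.0 of its bases inside. The OCR on chromosome 5 (115654634 to 115655024), with 70 bases of a B1_Mus1 copy, had 3.19, 5.39, 2.70 and 5.18 CPM in KO and 1.62, 1.87, 0.898 and 1.07 in WT. All KO values lay above all WT values (log2 fold 1.64 ± 0.30, SE, adjusted p = 0.323 in edgeR and 0.00196 in DESeq2). On chromosome 14, an OCR (61756043 to 61756833) with 75.0 bases of a B1_Mm copy had 4.98 to 10.4 CPM in KO and 2.04 to 4.36 in WT (log2 fold 1.40, adjusted p = 0.323 in edgeR and 0.00209 in DESeq2). On chromosome 17, the OCR (43343337 to 43344298) with 39.0 bases of a B1_Mus2 copy had 2.09 to 4.20 and 0.780 to 1.15 CPM (log2 fold 1.52). The OCR on chromosome 6 (72995727 to 72996167), with 78.0 bases of a B1_Mur1 copy, had 2.24 to 5.13 and 1.32 to 1.77 CPM (log2 fold 1.46). KO and WT did not overlap in any of the 4.

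The 4 that were lower in KO held more of the copy, 113 to 141 bases, though the copies on chromosomes 11 and 13 also lay across an edge. Whether the position of the copy goes with the direction of change was not tested. The OCR on chromosome 11 (94838948 to 94839494), with 141 bases of a B1_Mus1 copy, had 6.48, 7.86, 8.04 and 6.94 CPM in KO and 12.3, 10.1, 12.1 and 11.6 in WT. All KO values lay below all WT values (log2 fold -0.65 ± 0.14, SE, adjusted p = 0.323 in edgeR and 0.00961 in DESeq2). On chromosome 13, an OCR (54826063 to 54826661) with 113 bases of a B1_Mus1 copy had 1.19 to 2.32 CPM in KO and 2.99 to 4.69 in WT (log2 fold -1.16). On chromosome 8, an OCR (71961933 to 71962654) with 133 bases of a B1_Mus1 copy had 3.17 to 4.88 and 5.03 to 9.79 CPM (log2 fold -1.04). The widest, on chromosome 17 (6696384 to 6697784), held 134 bases of a B1_Mm copy centred 51.5 bp from its middle and had 18.6 to 22.4 and 25.2 to 29.0 CPM (log2 fold -0.44, adjusted p = 0.323 in edgeR and 0.0447 in DESeq2). Which bases of these OCRs the change in counts falls on was not analysed here.

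Sex label and its interaction with genotype gave no call among the B1_M subfamilies. In edgeR 0 of 7 passed for male against female label, with 0% of all 831, and 0 of 7 had an unadjusted p under 0.05, with 1.68% of all 831. For the interaction of genotype and sex label, edgeR also gave 0 of 7 by both rules, with 0% of all 831 by both. The log2 difference of males from females ran from -0.07 (B1_Mm) to 0.00 (B1_Mur1), and without KO F2 from -0.09 to -0.01. In DESeq2 this difference ran from -0.02 (B1_Mm) to 0.05 (B1_Mur1). The interaction ran from 0.10 (B1_Mur2) to 0.22 (B1_Mm) on the log2 scale, with SEs of 0.11 to 0.19, and without KO F2 from 0.15 to 0.29.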

How the data were processed

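ATAC-seq libraries of 8 mice (4 KO, 4 WT) were compared, with groups and sex taken from the labels. The members and lists were chosen with earlier results of these data known. Per the submitters' processing notes, the build was GRCm39 and the tools included Bowtie2, Trim Galore, Picard and SAMtools, MACS2 and bedtools. The deposited table holds estimated counts (featureCounts 2.0.3, per the file headers): reads were reduced to their 5′ ends, both mates had to align, and a read end in several regions was split equally among them. Any shift of read ends for the transposase, how reads with several matches were placed and how peaks were merged are not given in the sources used here.

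Counts were rounded for count models. Subfamily sums (mean of at least 100 counts), copies and OCRs (both by filterByExpr) were tested with edgeR 4.0.16 (robust quasi-likelihood, sex label as covariate) in R 4.3.3. Library sizes were table totals with TMM factors over OCRs and copies together, or OCR totals with their own TMM factors for OCRs. P-values were adjusted by Benjamini-Hochberg over all features of a kind, at 0.05. Shares were compared by exact two-sided permutation over 70 assignments, whose smallest p is 0.0286. OCRs and copies overlapped if they shared at least 1 base. Text names each subfamily, the 4 copies and 4 OCRs of lowest p in each direction outside chromosomes 18, X and Y, and the 4 copies outside OCRs of highest mean CPM.

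Alternatives were DESeq2 1.42.0, limma 3.58.1 voom, other scalings, filters, overlaps, denominators and lengths, a replicate block and leaving out each library. In simulated counts edgeR recovered 31.7% of 1.2-fold and 97.3% of 1.5-fold changes among 831 subfamilies, 10% of 2-fold and 82.2% of 4-fold changes among 23439 copies, and among 9797 OCRs 17.1% of 1.5-fold and 90% of 4-fold changes. Each simulated run changed 200 features, and the copies and OCRs were adjusted over those of B1_M alone. The real fits were adjusted over all copies or OCRs, so recovery in them may be lower than these shares. Among the 831 subfamilies the 200 changed ones were a large part, and all were drawn independently of each other. Recovery of real subfamily changes may therefore be lower too. Gene lists, cell-type markers and sequences were not analysed here, since no annotation in GRCm39 was used.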

Additional observations from a re-analysis of the deposited data

Results flagged for a closer look

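In B1_Mur3, KO M2 stood apart from the other KO libraries. It had 1392 CPM where the other 3 had 1294 to 1307, a gap of 0.870 of the range of the group. Of 62 groups of 4 libraries looked at in this way, this was the 1 that passed the critical value, and chance passes about 1 group in 20.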

How the results depend on the processing

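Under 89 of 93 alternatives the outcome stayed the same. For shares and the ratio to older B1, this meant the same side of the threshold and the same direction. For counts of calls it meant within 1.5 times the main count, which includes 0 against 0. For sex label and its interaction with genotype only counts of calls were compared, and directions were not. The sex difference was above 0 in 2 of 7 subfamilies in edgeR, in 5 of 7 in DESeq2 and in 0 of 7 without KO F2. The count of called OCRs with a B1_M copy rose from 0 to 123 in DESeq2. The KO minus WT difference in the B1_M share of retrotransposon counts (0.0626 percentage points) ranged from -0.0722 to 0.157 when 1 library was left out, below 0 when KO M1 or WT F1 (-0.0267) was left out. The difference in the share of Alu counts (0.631 points) ranged from 0.0204 without KO M2 to 1.27 without KO M1. The difference in the share on copies that overlap OCRs (-0.659 points) ranged from -1.69 to 0.133, above 0 without KO M2. With 1 library left out, the log2 fold of KO over WT ranged from -0.006 to 0.158 for B1_Mm and from -0.001 to 0.123 for B1_Mus1, both below 0 without KO M2, and that of B1_Mur1 was below 0 in DESeq2 (-0.002), with DESeq2 size factors in edgeR (-0.002) and with TMM over retrotransposon subfamilies (-0.001). None of these passed a threshold, and the cause was not tested. All 8 named OCRs passed the threshold in DESeq2 (adjusted p 0.00196 to 0.0447) and none in edgeR (adjusted p = 0.323). They were chosen by their low p in edgeR on the same counts, so DESeq2 is no independent test of them. Deviations from the group means of samples with equal labels had r = 0.65 (F1), 0.336 (F2), 0.717 (M1) and -0.212 (M2), so the labels were not taken as pairs, and 6 of 8 libraries (not KO M2 and WT M2) correlated best with the library of equal label. With a replicate block, edgeR called 0 B1_M subfamilies, 0 copies and 0 OCRs. An unadjusted p under 0.05 was then found for 1075 B1_M OCRs (7.69% higher and 3.29% lower, with 7.85% and 4.57% of all OCRs), against 890 without the block. The difference in the B1_M share of retrotransposon counts was 0.0626 points by sign flips over 4 pairs (exact p = 0.250). Sign flips over 4 pairs cannot give a p under 0.05, so this test could not have passed the threshold. The shares with a replicate block are counted among the 89, though they could not have crossed the threshold. B1_M copies tested singly held 10.2 counts per library at the median; simulated 2-fold changes were recovered in 10% of cases among these 23439. The gene and marker comparisons planned for a table in GRCm39 were not run.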
